A study of Ovis aries with 7 samples.

Results

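D1 medium spiny neurons are the projection neurons of the striatum that send their axons along the direct pathway to the basal ganglia output nuclei. They were studied in striatal nuclei of sheep aged 5 years, 6 of the OVT73 line and 6 controls without the transgene. OVT73 sheep carry a full-length human huntingtin (HTT) cDNA with an expanded polyglutamine tract, controlled by a segment of the human HTT gene, and serve as a model of Huntington's disease at a stage without striatal cell loss. Droplet sequencing gave 7 libraries, 3 of OVT73 and 4 of control sheep, and every OVT73 library and control libraries 3 and 4 pooled 2 sheep, while control libraries 1 and 2 held 1 sheep each.

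D1 neurons were chosen by counts of transcripts, as unique molecular identifiers (UMIs) per barcode. A member had at least 8000 UMIs, at most 7500 detected genes and at least 20 UMIs of the medium spiny neuron (MSN) core genes PDE10A, RGS9, RARB and ANO3. It also had at least 10 UMIs of TAC1, EBF1 and RELN together, at least 3 times as many as of DRD2, PENK and HS3ST4, and fewer than 30 ERBB4 UMIs per 10000. The rule took 2220 of 35272 barcodes (6.29%), or 43.0% of the 5159 nuclei with the core genes. OVT73 libraries gave 1318 members (607, 463 and 248 in libraries 1 to 3) and control libraries 902 (292, 143, 214 and 253 in libraries 1 to 4). The same limits with the marker sums exchanged took 1164 nuclei as D2 neurons, and 1775 nuclei with the core genes belonged to neither class.

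MSNs are GABAergic cells that receive glutamate from cortex and thalamus and dopamine from the midbrain. In D1 neurons dopamine acts on the DRD1 receptor, which raises cyclic AMP through the striatal G protein subunit GNAL and the cyclase ADCY5, and the cells make substance P (from TAC1) and dynorphin (from PDYN). D2 neurons, of the indirect pathway, carry DRD2 and ADORA2A and make enkephalin (PENK), and they are lost early in Huntington's disease.

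The D1 nuclei held 26.4% of all 233923297 UMIs, with a median of 23633.5 UMIs and 4937 genes per nucleus. Over all barcodes of a library the median was between 1766 UMIs (control library 4) and 2612 UMIs (OVT73 library 1). That D1 nuclei lay above these library medians was fixed by the minimum of 8000 UMIs in the rule. D2 nuclei, chosen with the same minimum, had a median of 23406 UMIs. The 33957 barcodes that had 200 to 7500 genes and at most 5% mitochondrial UMIs are called within limits below. Summed UMIs of the members were 21647518, 11507697 and 6010403 in OVT73 libraries 1 to 3 and 7626525, 3518176, 4410441 and 6958378 in control libraries 1 to 4. Only 7 members passed 5% mitochondrial UMIs, and 120 were among the 4% of barcodes with the highest doublet score in their library. No barcode sequence was a member in 2 libraries, and 24 members shared a barcode with another library, where 159 barcode sequences in all recurred.

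The limits were not placed in gaps of the distribution. Just inside the marker minimum, 126 members had 10 to 12 UMIs of TAC1, EBF1 and RELN, and 81 nuclei with 7 to 9 fell just outside. Just inside the ratio, 200 members had 3 to under 4 times as many D1 as D2 marker UMIs, and 263 nuclei with 2 to under 3 times as many were left out. Fewer than 8000 UMIs kept out 40 nuclei that met the other limits. The median member had 33 UMIs of the D1 markers, 2 of the D2 markers and 115 of the core genes, and 781 members had no D2 marker UMI. In the plot of marker UMIs the members and the 1164 D2 nuclei form arms joined by the 1775 nuclei between them.

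**Figure D1:**
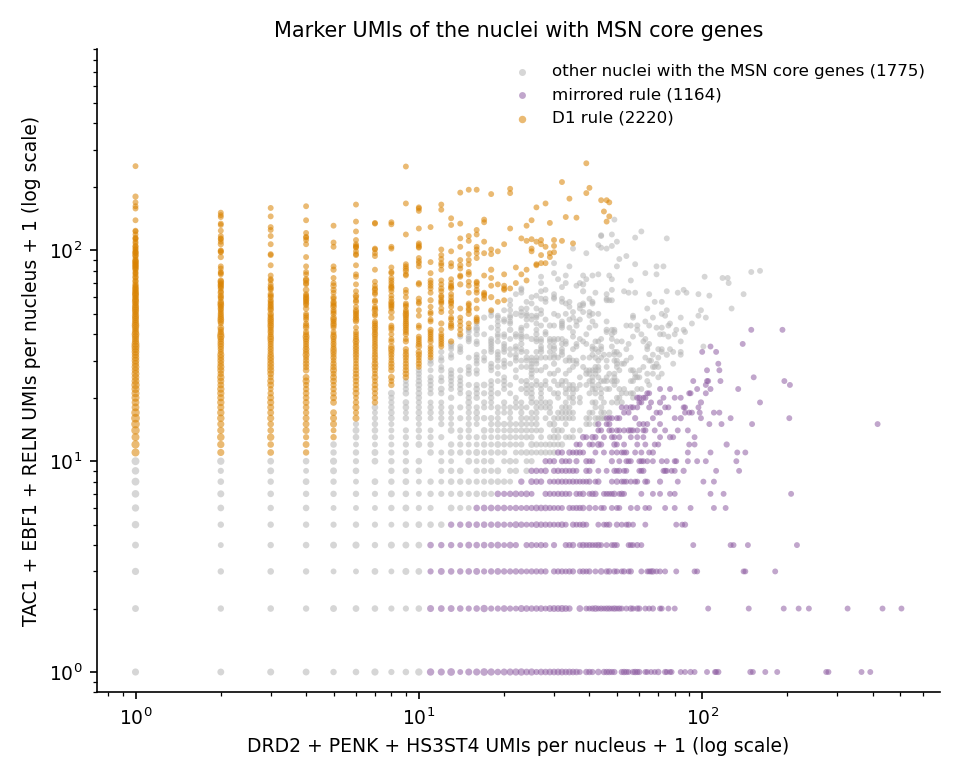
Each point is a combination of TAC1 + EBF1 + RELN UMIs (vertical, log scale, 1 added) and DRD2 + PENK + HS3ST4 UMIs (horizontal, log scale, 1 added) in 1 or more of the 5159 nuclei with the MSN core genes, with larger points for more nuclei. The 2220 D1 members (orange) lie at the upper left, the 1164 nuclei of the mirrored rule (purple) at the lower right, and the 1775 others (grey) fill the space between them without a gap.

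The markers that chose the members were not equal partners. RELN, an extracellular matrix protein of the neuronal surface, gave 72.2% of the TAC1, EBF1 and RELN UMIs of the members. RELN stood at 1254, 903 and 968 CPM (UMIs of a gene scaled to a common total) in D1 sums of OVT73 libraries 1 to 3 and at 1336, 692, 956 and 945 CPM in control libraries 1 to 4. TAC1, the substance P precursor, stood at 270.0, 186 and 158 CPM in OVT73 and at 425, 249.6, 239 and 146 CPM in control libraries. EBF1, a transcription factor of the direct pathway lineage, stood at 149, 229 and 218 CPM in OVT73 and at 127, 186, 183 and 136 CPM in control libraries. TAC1 thus varied most of the 3 between libraries, with the highest value in control library 1 and the lowest in control library 4.

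RELN transcripts were also present in D2 nuclei, where the mirrored rule limits them, at 174 ± 44.0 CPM (SD, n = 7), and EBF1 stood there at 2.13 ± 1.81 and TAC1 at 8.70 ± 2.63 CPM. Of the members, 154 (6.94%) had at most 1 UMI of TAC1 and EBF1 and entered through RELN. Pooled over libraries, these 154 nuclei had more of several D2 genes than the members with TAC1 and EBF1. DRD2 stood at 21.6 CPM in them, 1.63 CPM in the 1994 members with 3 or more TAC1 and EBF1 UMIs, and 43.7 CPM in D2 nuclei. PTPRM, a receptor phosphatase that was not part of the rule, stood at 150, 39.3 and 420 CPM in the same order, and GRIK3, a kainate receptor subunit also outside the rule, at 120, 37.2 and 334 CPM. By these genes the D1 label did not hold for all members, and the share of members with at most 1 TAC1 and EBF1 UMI ranged from 2.42% in OVT73 library 3 to 10.0% in OVT73 library 1 (3.77% to 9.88% in control libraries). A class chosen after these values were seen, from the core nuclei with 3 or more TAC1 and EBF1 UMIs and 3 times as many as of DRD2 and PENK, held 2511 nuclei, of which 1992 were members.

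Genes of D1 neurons that played no part in the rule were sparse, and each was found in a larger share of D1 than of D2 nuclei. With every nucleus thinned to 8000 UMIs, a UMI of PDYN was found in 2.25% of D1 and 0.172% of D2 nuclei. The muscarinic receptor CHRM4 was found in 0.946% and 0.0859%, the transcription factor ISL1 in 1.35% and 0.0859%, and SLC35D3, which is needed for DRD1 at the cell surface, in 4.28% and 0%. Before thinning the shares in D1 nuclei were 5.95%, 2.84%, 3.69% and 10.5%, and in 14734 oligodendrocyte nuclei, which should lack these genes, 0.271%, 0.0204%, 0% and 0.136% at a median depth of 1874 UMIs. TAC1 itself had a UMI in 13.5% of those oligodendrocyte nuclei, so that a single TAC1 UMI is weak evidence in this tissue. DRD1 was not analysed here.

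Markers of other cell types were measured in the D1 sums. The 8 D2 markers summed to 223 CPM, with ADORA2A, GPR6 and SP9 under 1 CPM, and HS3ST4, which the rule limits together with DRD2 and PENK, was the most abundant at 123 CPM. The neuroblast list summed to 313 CPM, of which ADARB2 gave 163 CPM, and the PV/Th interneuron list to 267 CPM, of which PTPRK gave 251 CPM while PVALB, KIT and TH were under 1 CPM. The 4 general interneuron genes summed to 187 CPM, against 13630 CPM in ERBB4-rich nuclei. The 5 oligodendrocyte markers measured summed to 84.7 CPM, against 7228 CPM in oligodendrocyte nuclei. The 5 astrocyte markers summed to 33.4 CPM, against 8856 CPM in astrocyte nuclei, led by the glutamate transporter SLC1A2 at 16.7 CPM, with GJA1 under 1 CPM. The 4 microglia markers summed to 19.5 CPM, and SLC17A7, TBR1 and NEUROD6 of cortical excitatory neurons were under 1 CPM. Somatostatin (SST) and NPY interneuron genes summed to 17.9 CPM, and 40 members had 3 or more UMIs of SST, NPY and NOS1. ERBB4, which the rule limits, remained at 93.6 CPM, and 100 nuclei that met every other limit were left out for it.

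Large ratios between D1 and D2 nuclei were limited to a short list of genes, while small ones of 1 direction were common. Of 3333 genes with a mean of at least 50 CPM in either class, the log2 ratio of CPM (0.5 CPM added) had a median within 0.5 of zero for 3142. The ratio had 1 direction in all 7 libraries for 842 genes (25.3%). It was at least 1 in all 7 for 7 genes (0.21%) and at most -1 in all 7 for 33 genes (0.99%). Since both classes were chosen on the counts of these nuclei, the ratios are a description and no test was run.

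Outside the rule, the gene with the highest ratio was ADARB2, an RNA-editing family protein without known editing activity, with 163 ± 59.4 CPM in D1 and 9.36 ± 5.32 CPM in D2 nuclei (SD, n = 7). Its log2 ratio ran from 2.94 in control library 2 to 5.34 in control library 1, with 3.78 to 4.23 in the OVT73 libraries. FOXP2, a forkhead transcription factor of striatal projection neurons, followed with 80.8 ± 22.7 and 12.8 ± 11.7 CPM and log2 ratios from 1.60 in OVT73 library 1 to 5.61 in control library 1. Its ratio was the most scattered of the 12, in a pattern that cut across OVT73 and control libraries. FOXP2 also marks the ERBB4-rich nuclei outside the class, and at 8000 UMIs per nucleus it had a UMI in 31.6% of D1, 2.92% of D2 and 36.2% of the 1030 ERBB4-rich nuclei, whereas OTOF, a marker of eccentric MSNs, had one in 1.76%, 5.07% and 17.2%. GNG12, a G protein gamma subunit, had a median log2 ratio of 2.18, FIGN (fidgetin, a microtubule-severing protein) 1.52, RASGRF2 (a calcium-dependent Ras activator) 1.08, and RGS6 (a regulator of G protein signalling) 1.04. LIN28B, CHD7 and CNTNAP4 completed the list at 0.94, 0.92 and 0.91. EBF1, TAC1 and RELN, which the rule used, had medians of 6.68, 4.76 and 2.54.

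Lower in D1 than in D2 nuclei were the netrin receptor gene UNC5D (13.6 ± 11.5 against 645 ± 272 CPM) and the receptor tyrosine kinase gene ALK (16.0 ± 9.92 against 613 ± 209 CPM), with median log2 ratios of -5.77 and -5.54 (SD, n = 7). NTS, the neurotensin precursor, had a median of -3.48, and HS3ST4, which the rule used, -3.54. The other 8 of the 12 genes with the lowest ratio were NOS1, NPY, SST, SOX6, TOX, NXPH1, SLC44A5 and PDE3A, from -5.32 to -3.32. Of these, NOS1, NPY, SST and NXPH1 are in the interneuron lists. The mirrored rule had taken in 66 nuclei with 3 or more UMIs of SST, NPY and NOS1, and without them UNC5D, ALK, NTS, HS3ST4, IPCEF1, KCNT2, PTPRM, OPRD1, GRIK3 and PPM1E were the 10 lowest. ALK then stood at 361 ± 130.0 CPM (SD, n = 7) in D2 nuclei, with a median of -4.69, and UNC5D at 584 ± 269 CPM (SD, n = 7), with a median of -5.61.

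**Figure D2:**
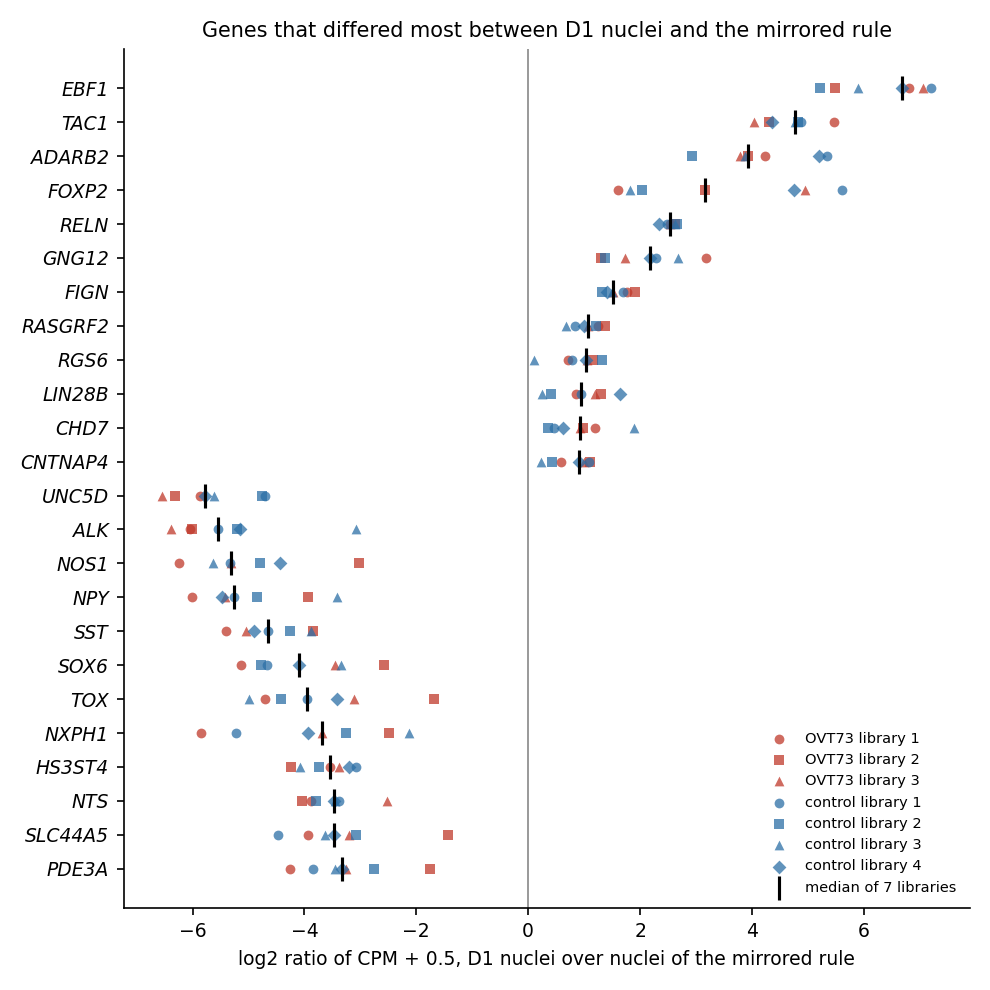
The log2 ratio of CPM (0.5 added) in D1 nuclei over nuclei of the mirrored rule is plotted for the 12 genes with the highest and the 12 with the lowest median, with 1 point for each OVT73 (red) and control (blue) library and a black tick at the median of the 7. EBF1 reaches a median of 6.68 and UNC5D -5.77, FOXP2 spreads from 1.60 to 5.61, and OVT73 and control points are mixed within most genes.

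The comparison was repeated with a D2 class chosen afterwards by 3 or more UMIs of DRD2, PENK and ADORA2A and none of TAC1 and EBF1 (713 nuclei). Of the named genes with a median of at least 1 and 1 direction in all libraries, 8 were higher in D1 nuclei against all 3 choices of D2 nuclei. For EBF1, TAC1 and RELN the rules fixed this, and the other 5 were ADARB2, FOXP2, GNG12, FIGN and RASGRF2. There were 20 that were lower against all 3, with HS3ST4 of the rule and UNC5D, ALK, NTS, PTPRM, IPCEF1, GRIK3, OPRD1, KCNT2 and the adrenergic receptor gene ADRA1A among them. UNC5D stood at 342 ± 256 CPM (median -4.10) and ALK at 255 ± 94.6 CPM (median -4.08) in this D2 class (SD, n = 7). RELN stood at 431 ± 157 CPM (SD, n = 7) in it, a median log2 ratio of 1.28. FOXP2 stood at 1.94 ± 1.504 CPM (SD, n = 7), with a median of 5.57 and a narrower range of 3.91 to 6.12. NRG3, a neuregulin ligand of ERBB4, was high in D1 nuclei of every library (2042 to 3232 CPM) and stood at 201 ± 179 CPM (SD, n = 7) in this D2 class, a median log2 ratio of 4.25. It was not among the 12 genes with the highest median under the mirrored rule, and its level in this D2 class ran from 10.5 CPM in control library 1 to 523 CPM in OVT73 library 1. KCNB2 (a potassium channel subunit), PARP8 and PDE1A had medians of 1.58, 1.28 and 1.21 against the same class.

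Receptor genes of 1 family differed in direction between D1 and D2 nuclei. The kainate receptor subunit GRIK2 was higher in D1 nuclei in all libraries (4500 against 2831 CPM, median log2 ratio 0.68), while GRIK3 (48.9 against 314 CPM, -2.60) and GRIK4 (91.5 against 153 CPM, -0.78) were lower in all. The serotonin receptor HTR2C was higher in D1 nuclei (241 against 153 CPM, 0.71) and HTR4 (284 against 515 CPM, -0.82) and HTR2A (59.4 against 99.4 CPM, -0.64) lower, each in all 7 libraries. The delta and mu opioid receptor genes OPRD1 (-2.73) and OPRM1 (-1.04) were lower, and the kappa receptor gene OPRK1 had a median of 0.04. The NMDA receptor subunit GRIN2A (161 against 293 CPM, -0.85) and the GABAA subunit GABRG3 (105 against 226 CPM, -0.96) were lower in all libraries. Of the 12 GABAA subunits at 10 CPM or more, 2 were lower and 2 higher in D1 nuclei in all libraries, whereas the 4 AMPA receptor genes had a list median of 0.01 with none of 1 direction. The dopamine D3 receptor gene DRD3 stood at 42.7 and 44.2 CPM.

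Genes of the signalling chain that follows the dopamine receptors had ratios to either side of 0. Over the 20 genes of the dopamine and cyclic AMP list at 10 CPM or more in either class the median log2 ratio was 0.01, against 0.00 over the 3333 genes. Of these 20, PDE10A and ARPP19 were higher in D1 nuclei in all libraries (medians 0.09 and 0.32), and the phosphodiesterases PDE2A and PDE4D were lower (-0.09 and -0.52). Among the 9 transcription factors at that level, FOXP2 and MEIS2 were higher in D1 nuclei in all libraries. So was EBF1, for which the rules fixed this. FOXP1, BCL11B, RARB and ZFHX3 had medians between -0.11 and 0.04. RARB here, and PDE10A and RGS9 of the dopamine list, counted towards the core minimum that both classes had to pass.

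Within the D1 class, the spread between nuclei of a library differed widely from gene to gene. With each nucleus thinned to 8000 UMIs, variance over mean of the UMIs per nucleus was 1.16 in the median of 2751 genes with at least 0.5 UMIs per nucleus, where independent sampling of UMIs gives a value near 1. It was 27.5 (23.0 to 36.2 over the 7 libraries) for ROBO2, an axon guidance receptor, 12.2 for PHACTR1, an actin regulator, 11.9 for DPP10, a potassium channel partner, and 10.8 for the glypican GPC5. ZNF804A (6.98), FSHR (6.52), ROBO1 (6.34) and NRG3 (6.11) also stood among the 20 highest, as did the mitochondrial transcripts CYTB (8.05) and COX3 (7.87). Over nuclei within a library, the highest Spearman correlation among the marker, patch and matrix genes was that of RELN with FOXP2, at 0.27 in the median (0.01 to 0.43 over libraries), and these are sparse counts of nuclei that share a library and a depth.

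The striatum is divided into patches (striosomes) and a surrounding matrix, which differ in inputs and outputs. A patch minus matrix index, the difference of log2 summed UMIs plus 1 of the 9 patch and 7 matrix genes at 8000 UMIs per nucleus, had medians of -0.22, -0.26 and 0.00 in D1 nuclei of OVT73 libraries 1 to 3 and -0.32, -0.42, 0.00 and 0.00 in those of control libraries 1 to 4. The groups overlapped, with means of -0.16 ± 0.14 (SD, n = 3) and -0.18 ± 0.22 (SD, n = 4) (p = 0.914 in an exact two-sided permutation test, with 35 ways to choose 3 of the 7 libraries). The index rests on 2.57 to 3.77 patch and 3.27 to 3.79 matrix UMIs per nucleus and does not sort single nuclei. In D2 nuclei the medians were between 0.00 and 0.68. Of the 8 patch genes at 10 CPM or more, 4 were lower in D1 than in D2 nuclei in all libraries and 1 was higher. OPRM1, KHDRBS3 and BACH2 were among the lower ones. Of the 5 matrix genes at that level, 3 were lower and 2 higher in D1 nuclei in all libraries.

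The share of D1 nuclei was compared next, to ask whether these neurons were scarcer in OVT73 striatum. Members within limits made up 6.95%, 8.78% and 5.90% of the barcodes within limits in OVT73 libraries 1 to 3 and 8.98%, 3.51%, 5.09% and 5.85% in control libraries 1 to 4. The 95% Wilson intervals, which cover counting error only, were about 1 percentage point to either side or less, from 2.99% to 4.13% in control library 2 and from 8.04% to 10.0% in control library 1. The lowest and the highest share were thus both in control libraries, and the groups overlapped, with means of 7.21% ± 1.46 (SD, n = 3) for OVT73 and 5.86% ± 2.30 (SD, n = 4) for control (exact permutation p = 0.4, two-sided). The difference of 1.35 percentage points became 0.567 without OVT73 library 2, 0.571 without control library 2 and 2.39 without control library 1. The 2 extreme libraries were those of a single sheep. Because members need 8000 UMIs, the share also depends on depth, and fewer D1 nuclei and less RNA per nucleus cannot be told apart below that limit.

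Against D2 nuclei, D1 nuclei made up 81.6%, 54.6% and 62.5% of the nuclei of either class in OVT73 libraries 1 to 3 and 73.4%, 56.1%, 59.6% and 66.1% in control libraries 1 to 4. The means were 66.2% ± 13.9 (SD, n = 3) and 63.8% ± 7.61 (SD, n = 4) and did not differ beyond the spread (exact permutation p = 0.771, two-sided). OVT73 library 1 gave the highest value, and without it the difference turned from 2.44 to -5.24 percentage points (-0.13 without control library 2). With classes by TAC1 and EBF1 and by DRD2, PENK and ADORA2A, an alternative added after seeing the data, the shares were 78.5% ± 4.83 and 78.0% ± 6.08. The order of the libraries was then another, with 73.4%, 83.1% and 79.0% in OVT73 libraries 1 to 3 and 70.6% to 83.9% in control libraries. Under the mirrored rule HS3ST4 gave 94.5% of the D2 marker UMIs of D2 nuclei, and 57.2% of D2 nuclei had a DRD2 UMI before thinning. The 1775 core nuclei of neither class are not counted, so these shares do not measure the proportion of D1 to D2 neurons in the tissue.

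Within the limits of the rule on UMIs and genes, which truncate this measure in both groups, the median D1 nucleus held 31718, 22962 and 20454 UMIs in OVT73 libraries 1 to 3 and 21865, 21574, 17009.5 and 23988 UMIs in control libraries 1 to 4. The means of these medians were 25045 ± 5914 (SD, n = 3) and 21109 ± 2937 (SD, n = 4) (exact permutation p = 0.4, two-sided). OVT73 library 1, which had the most UMIs in all (70473426), stood above the rest, and without it the difference fell from 3936 to 599 UMIs.

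**Figure D3:**
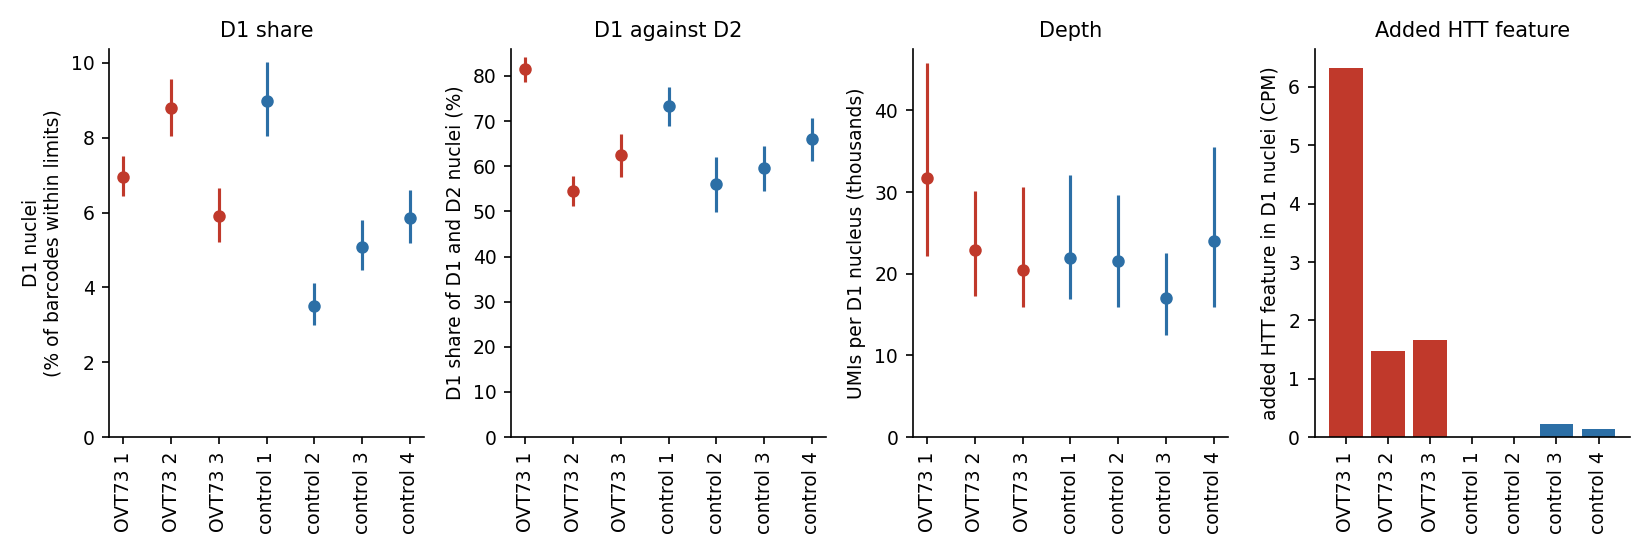
For each OVT73 (red) and control (blue) library the panels show D1 nuclei as a percentage of barcodes within limits and of D1 and D2 nuclei (points, with 95% Wilson intervals), the UMIs per D1 nucleus (median and quartiles) and the CPM of the added HTT feature in D1 nuclei (bars). The groups overlap in the first 3 panels, and in the last the lowest OVT73 value, 1.48 CPM, lies above the highest control value, 0.227 CPM.

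The libraries' labels were checked in D1 nuclei by the feature named HTT that the reference held beside the sheep HTT gene (ENSOARG00020020229). Its UMIs in D1 nuclei numbered 137, 17 and 10 in OVT73 libraries 1 to 3 and 0, 0, 1 and 1 in control libraries 1 to 4. That is 6.33, 1.48 and 1.66 CPM in OVT73 and 0.227 and 0.144 CPM in control libraries 3 and 4, while the counts of 0 in control libraries 1 and 2 allow up to 0.393 and 0.853 CPM. All OVT73 libraries were above all control libraries (exact permutation p = 0.0286, two-sided, the smallest these libraries can give), with library 1 far above the other two. A UMI of the feature was seen in 109 of 607, 16 of 463 and 10 of 248 D1 nuclei of OVT73 libraries. The sheep HTT gene stood at 83.2 to 96.0 CPM in OVT73 and 85.2 to 113 CPM in control libraries, which overlap.

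Expression in D1 nuclei was then compared gene by gene between OVT73 and control sheep. No gene passed an adjusted p of 0.05 in edgeR's quasi-likelihood test on the summed UMIs of 3 OVT73 and 4 control libraries, 0 of 12054 genes tested (0%). At an unadjusted p under 0.05 there were 553 genes (4.59%), of which 284 were higher and 269 lower in OVT73, and DESeq2 called 4 genes. The smallest adjusted p from edgeR was 0.237. The median log2 fold change was -0.04 and the median absolute one 0.16, with a median standard error of 0.22 over all genes and 0.13 over the 3205 genes with at least 50 CPM. Only 2 of those 3205 had a fold change past 1 on the log2 scale. The libraries of 1 group differed by an SD of 0.16 (log2, median over these genes), and any pair of libraries correlated across them at a Pearson r of 0.951 to 0.983. The OVT73 and control libraries did not overlap for 683 genes (5.67%), 362 higher (3%) and 321 lower (2.66%) in OVT73.

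Of the 10 genes with the smallest p among those whose libraries did not overlap, 5 in each direction, 9 are given although none passed in edgeR. The added HTT feature was the first of the higher 5. MEF2C, a transcription factor that governs synapse number in neurons, had 88.3, 79.6 and 93.9 TMM-scaled CPM in OVT73 libraries 1 to 3 and 58.0, 61.3, 47.2 and 49.0 in control libraries 1 to 4. The lowest OVT73 value lay well above the highest control value, with a log2 fold change of 0.70 (SE 0.13, adjusted p = 0.662 from edgeR, 0.00724 from DESeq2). KCTD8, an auxiliary subunit of GABAB receptors, had 194, 166 and 151 TMM-scaled CPM in OVT73 and 69.8, 108, 129 and 104 in control libraries (log2 fold change 0.74, SE 0.18, adjusted p = 0.904 from edgeR). The other two were unnamed features, ENSOARG00020000703 at 5.93 ± 2.52 (SD, n = 3) against 1.81 ± 0.643 (SD, n = 4) and ENSOARG00020021846 at 179 ± 57.3 against 103 ± 8.07 TMM-scaled CPM.

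Lowest p of all had the unnamed feature ENSOARG00020014847, with 51.3, 58.4 and 57.2 TMM-scaled CPM in OVT73 libraries 1 to 3 and 98.7, 88.4, 98.6 and 108 in control libraries 1 to 4 (log2 fold change -0.82, SE 0.12, adjusted p = 0.237 from edgeR, 8.5e-06 from DESeq2). The libraries of each group lay close together. That the groups did not overlap was fixed by the rule that chose these genes. NUDCD3, a co-chaperone of the dynein motor, had 95.2 ± 7.23 (SD, n = 3) in OVT73 and 137 ± 13.8 (SD, n = 4) TMM-scaled CPM in control libraries. NOS2, the inducible nitric oxide synthase, was near the limit of detection at 0.58 ± 0.094 (SD, n = 3) and 2.07 ± 0.309 (SD, n = 4), and ENSOARG00020003927 stood at 1.29 ± 0.253 and 3.94 ± 0.982.

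**Figure D4:**
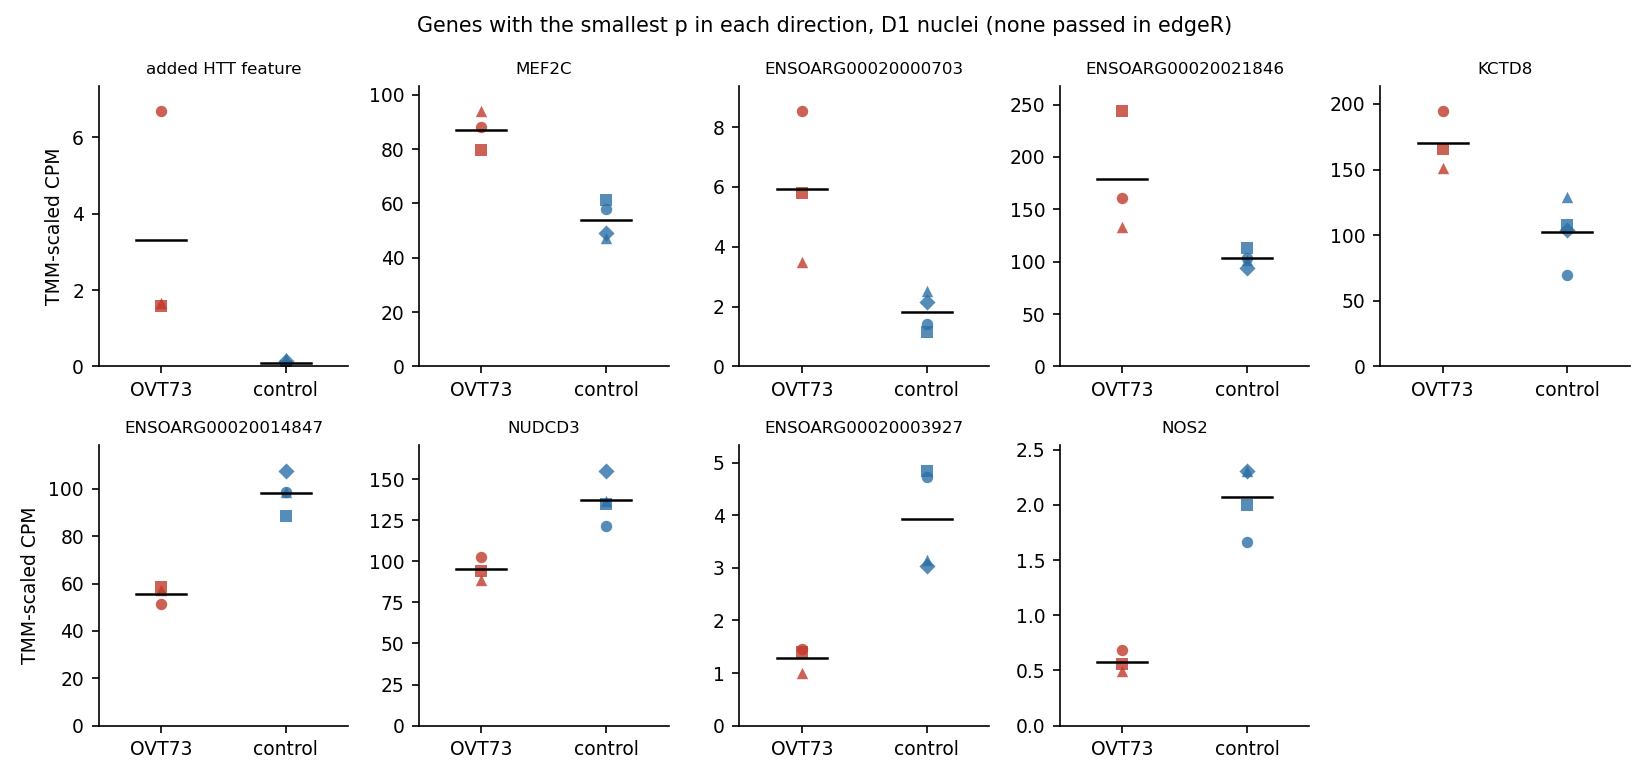
TMM-scaled CPM in D1 nuclei is plotted for 9 of the 10 features with the smallest p (5 higher in OVT73 above, 4 lower below), with 1 point for each OVT73 (red) and control (blue) library and a line at the group mean. The libraries do not overlap in any panel, by the rule that chose these genes, and none passed an adjusted p of 0.05 in edgeR. MEF2C lies at 79.6 to 93.9 in OVT73 and 47.2 to 61.3 in control libraries.

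The gene lists were read in the same fit. None of their 236 distinct genes tested passed in edgeR, and the libraries did not overlap for 18 of them (7.63%, beside 5.67% over all genes). Among the marker genes, whose levels in members are conditioned by the rule in both groups, TAC1 had 214 ± 64.7 (SD, n = 3) in OVT73 and 258 ± 113 (SD, n = 4) TMM-scaled CPM in control libraries, and PDE10A, the phosphodiesterase that defines MSNs, 3174 ± 257 and 3101 ± 532. RGS9 had 236 ± 21.5 and 258 ± 78.2, and EBF1 207 ± 45.6 and 154 ± 28.8. Their libraries overlapped between the groups, with the largest fold change that of EBF1 at 0.43 on the log2 scale (SE 0.18, adjusted p = 0.904 from edgeR). PDYN, CHRM4, ISL1 and SLC35D3 had fold changes from -0.67 to 0.67 at under 5 CPM each, with standard errors from 0.47 to 0.61.

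Of the dopamine and cyclic AMP cascade, 21 of 23 genes could be tested, 10 with a positive and 11 with a negative fold change and a median of 0.00. PDE10A and RGS9 among them were core genes of the rule. The catalytic and regulatory subunits of protein kinase A, PRKACB (0.25) and PRKAR2B (0.19), were the pair whose OVT73 libraries all lay above the control libraries. PPP1R1B, which encodes the dopamine-regulated phosphatase inhibitor DARPP-32, had 19.0, 18.3 and 29.0 TMM-scaled CPM in OVT73 and 22.6, 27.7, 49.7 and 33.3 in control libraries (-0.60, SE 0.27, adjusted p = 0.904 from edgeR). RASGRP2, a Ras family activator of the matrix compartment, was the lowest of the list at 4.48 ± 2.52 (SD, n = 3) and 10.2 ± 4.03 (SD, n = 4), with overlapping libraries.

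The list of striatal genes known to be low in Huntington's disease had 20 of 23 genes tested, 7 with a positive and 13 with a negative fold change and a median of -0.18, beside -0.04 over all genes, 55.7% of which had a negative one. The list median less that of all genes was -0.30 to -0.06 over the 16 alternatives. PDE10A, RGS9, TAC1, DRD2 and PENK of this list were part of the rule, which conditions their levels in both groups. SCN4B, a sodium channel subunit, had 8.33, 8.95 and 9.45 TMM-scaled CPM in OVT73 and 11.2, 12.3, 14.5 and 24.8 in control libraries, and was the single gene of this list whose libraries did not overlap (-0.83, SE 0.28, adjusted p = 0.904 from edgeR). Against these, CNR1 (0.00), PPP3CA (0.11), ARPP21 (0.24) and RGS4 (0.07) had fold changes at or above 0.

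The medians of the AMPA, kainate and GABAA receptor lists lay above that of all genes. The 4 AMPA receptor genes GRIA1 to GRIA4 had fold changes of 0.14 to 0.20 (SE 0.11 to 0.14), and 6 of 7 kainate and delta receptor genes were positive, with a median of 0.14. Of the NMDA receptor genes 1 of 5 was positive with a median of -0.15, which less that of all genes was -0.46 to 0.01 over the 16 alternatives. The positive one was GRIN2B, a subunit of striatal NMDA receptors, at 0.11 (SE 0.14). Of 12 GABAA subunit genes, 10 were positive with a median of 0.21, where 44.3% of all genes were positive. GABRG1 had 10.7, 15.4 and 9.78 TMM-scaled CPM in OVT73 and 8.42, 6.55, 6.09 and 6.92 in control libraries, and GABRA5 (206 ± 5.76 against 180.0 ± 11.9 TMM-scaled CPM, SD, n = 3 and 4) did not overlap either. The median of the GABAA list less that of all genes was 0.18 to 0.32 over the 16 alternatives. None of the members passed in edgeR.

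Of the oxidative phosphorylation genes, 50 of 55 had a fold change below 0, with a median of -0.22. The fold changes ran from -0.60 for NDUFA7 to 0.19, and NDUFA12 alone had libraries that did not overlap (21.5 ± 2.81 against 25.9 ± 1.23 TMM-scaled CPM, SD, n = 3 and 4). Without the control libraries of 1 sheep 29 of 55 were negative and the median was -0.03. The median was -0.11 without control library 1 and -0.13 without OVT73 library 2, and it was -0.36 without OVT73 library 1. Of the other lists, MSN transcription factors had 11 of 12 positive (median 0.16) with MEF2C the largest at 0.70 and BCL11B and ZFHX3 at 0.00 and 0.03, calcium and potassium channel genes had 4 of 15 positive (median -0.05), and chaperones 1 of 5 (median -0.28). CACNA1A, the P/Q-type calcium channel, had 574, 546 and 560 TMM-scaled CPM in OVT73 and 654, 724, 680 and 718 in control libraries (-0.31, SE 0.09, adjusted p = 0.904 from edgeR). The CREB family had 6 of 8 positive (median 0.13), with ATF1 and the coactivator gene CREBBP not overlapping and CREB1 at -0.09 (SE 0.12). Postsynaptic scaffold genes had 8 of 10 positive (median 0.07), and HOMER1 did not overlap. The neuropeptide list had 2 of 9 positive (median -0.27), other receptors 4 of 8 (median -0.14), metabotropic glutamate receptors 3 of 5 (median 0.08), GABA synthesis and transport 5 of 7 (median 0.03) and activity genes 4 of 4 (median 0.13). Less that of all genes, the median ran from -0.49 to 0.22 for neuropeptides, -0.26 to 0.20 for other receptors, -0.25 to 0.10 for channels, -0.09 to 0.16 for GABA synthesis and transport, -0.01 to 0.18 for scaffold genes, -0.07 to 0.24 for activity genes and -0.14 to 1.44 for astrocyte markers over the 16 alternatives, so that the sign of these was not stable. For chaperones the median less that of all genes was -0.37 to -0.03 over the same alternatives. The rule itself used EBF1 and RARB of the transcription factors, TAC1 and PENK of the neuropeptide list and DRD2 of the other receptors. Counts of signs depended on the scaling. Without TMM the median of all genes was -0.13, and 8 of 12 transcription factors, 9 of 12 GABAA subunits, 5 of 10 scaffold genes and 2 of 4 activity genes were positive, while the 4 AMPA receptor genes stayed positive with a median of 0.05. KREMEN1 of the patch list (9.30 ± 0.637 against 11.3 ± 1.29 TMM-scaled CPM, SD, n = 3 and 4) and EPHA4 of the matrix list (301 ± 47.7 against 234 ± 26.9) did not overlap either, nor did DCX (0.21) and HS3ST2 (0.73) of the neuroblast and interneuron lists.

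Glial markers in the D1 sums were compared in the same way, and none passed in edgeR. The astrocyte markers summed to 37.8, 51.3 and 51.7 CPM in OVT73 libraries 1 to 3 and to 12.1, 16.8, 49.4 and 14.9 CPM in control libraries 1 to 4. These sums overlapped through control library 3, whereas SLC1A2 alone did not, with 20.6 to 30.7 TMM-scaled CPM in OVT73 and 2.94 to 18.7 in control libraries. The oligodendrocyte markers summed to 83.8, 59.5 and 60.9 CPM in OVT73 and to 83.9, 104, 113 and 87.5 CPM in control libraries, which did not overlap, by a margin of under 0.1 CPM. Microglia markers summed to 14.8 ± 2.41 (SD, n = 3) and 23.1 ± 7.04 CPM (SD, n = 4) and those of oligodendrocyte precursors to 47.8 ± 17.0 and 46.3 ± 10.3 CPM, with overlapping libraries. Oligodendrocyte nuclei numbered 3769 of 8688, 1862 of 5273 and 1585 of 4205 barcodes within limits in OVT73 libraries 1 to 3. In control libraries 1 to 4 they numbered 1474 of 3231, 2009 of 4069, 2146 of 4185 and 1889 of 4306. Astrocyte nuclei numbered 434, 236 and 266 in OVT73 and 121, 72, 131 and 131 in control libraries. Whether glial markers in the D1 sums follow these numbers was not tested, nor was their part in the differences of other genes.

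**Figure D5:**
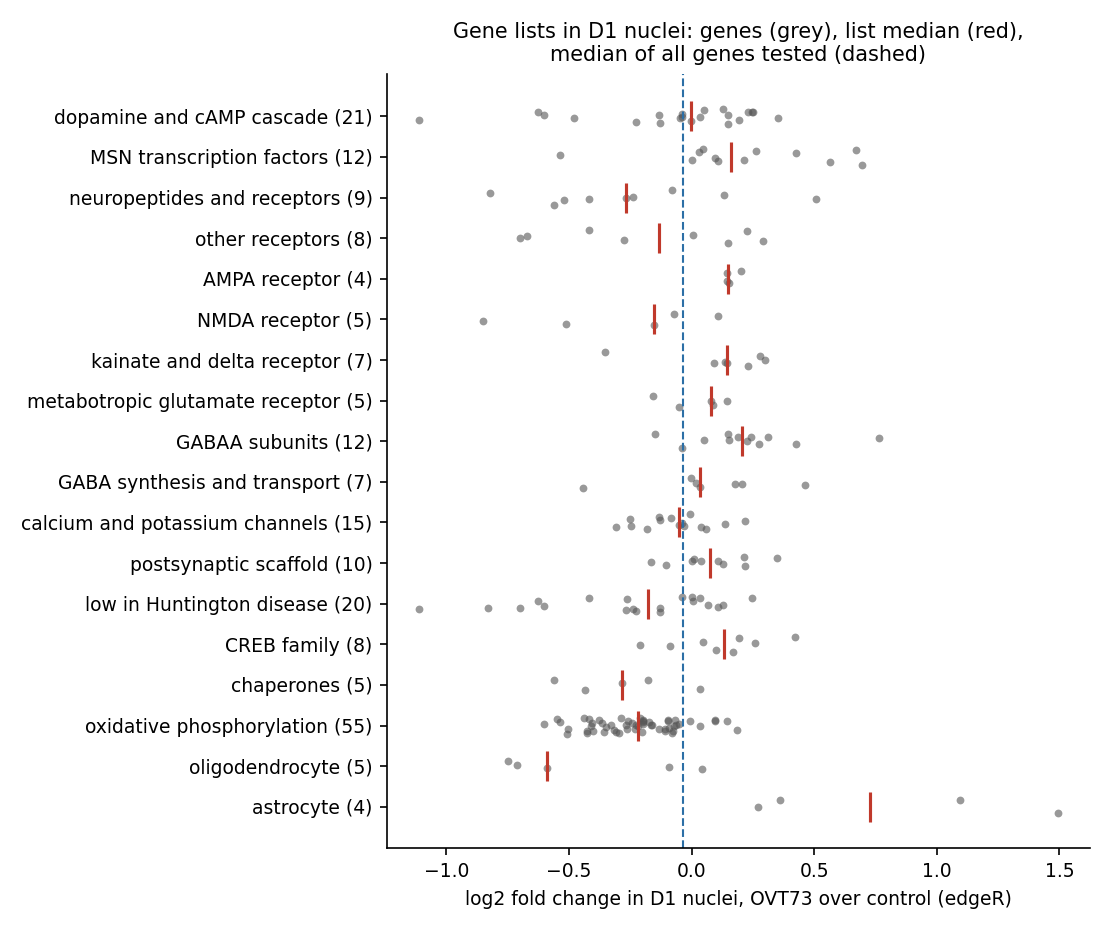
Grey points are log2 fold changes in D1 nuclei (OVT73 over control, edgeR) of the tested genes of 18 of the lists, with their number in parentheses, red ticks are list medians, and the dashed line is the median of all 12054 genes (-0.04). Medians of the lists shown run from -0.59 (oligodendrocyte markers) to 0.73 (astrocyte markers), with oxidative phosphorylation at -0.22 and GABAA subunits at 0.21, and no gene shown passed an adjusted p of 0.05 in edgeR.

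Whether the OVT73 difference in D1 nuclei departs from that in D2 nuclei was tested as an interaction in 1 model of the 14 sums, with the library as a block. Of 11840 genes tested, 0 passed an adjusted p of 0.05 in edgeR (0%), 344 (2.91%) had an unadjusted p under 0.05, and DESeq2 called 1 gene. The smallest p was that of EYA4, a transcriptional coactivator. It had 27.2, 18.0 and 21.0 CPM in D1 nuclei of OVT73 libraries 1 to 3 and 7.61, 22.4, 2.49 and 4.74 CPM in those of control libraries 1 to 4, and 4.19, 5.74 and 2.05 CPM and 8.07, 15.6, 2.08 and 4.95 CPM in D2 nuclei. Control library 2 stood with the OVT73 libraries in D1 nuclei. The difference of the log2 fold changes was 2.11 (SE 0.34, adjusted p = 0.133 from edgeR), and the adjusted p was 0.024 in DESeq2 and 0.00025 in edgeR without OVT73 library 2. Over all 12 alternatives the adjusted p ran from 1.6e-09, with no filter on low counts, to 0.473. PAMR1 (1.27, SE 0.30) and ENSOARG00020021846 (0.39, SE 0.10) followed among the positive differences. ITPKB, an inositol phosphate kinase (-0.48, SE 0.12), HS6ST3, a heparan sulfate sulfotransferase (-0.42, SE 0.11), and ENSOARG00020025745 (-2.56, SE 0.68) had the smallest p among the negative ones, each with an adjusted p above 0.9 from edgeR. HS6ST3 had an adjusted p of 0.00075 from edgeR with no filter on low counts. With classes by TAC1 and EBF1 and by DRD2, PENK and ADORA2A the differences were -0.17 for HS6ST3, -0.24 for ITPKB and 0.11 for ENSOARG00020021846.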

How the data were processed

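The authors sequenced droplet libraries of single striatal nuclei and made, per the labels and the study methods, counts with Cell Ranger 7.0.0 and STAR 2.7.2a on Oar_rambouillet_v1.0 with Ensembl genes. The deposited values are raw UMI counts of 26479 features per barcode, before demultiplexing of pooled sheep, so that the library was the replicate. The study does not state whether intronic reads were counted. In every library its supplement lists a larger share of reads mapped to the transcriptome than to exons, which counting of intronic reads would give. Symbols are those the authors' files pair with identifiers.

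Members, lists and alternatives were chosen with earlier results of these data known. UMIs of members were summed per library and compared by the quasi-likelihood test of edgeR 4.0.16 in R 4.3.3, with robust fitting, TMM factors and genes kept by filterByExpr. The p-values were two-sided and adjusted over all genes tested (Benjamini-Hochberg), and the code was tested on simulated data. TMM-scaled CPM are used beside these tests and plain CPM elsewhere. Named genes were list genes, those past an adjusted p of 0.05 or else the 5 of smallest p per direction without overlap (3 for the interaction), and the 12 highest and lowest D1 to D2 ratios among genes with 50 CPM and 1 direction. Single values were compared by exact permutation tests (scipy 1.17.1). Doublet scores came from scrublet in scanpy 1.11.5, whose automatic threshold marked 129 of 35272 barcodes and was not used; members were kept. Glial nuclei were barcodes with at least 5 UMIs of their markers, 3 times as many as of any other glial type, and fewer than 5 of the MSN core. Alternatives included DESeq2 1.42.0, no TMM, no filter, other limits of the rule, equal numbers of nuclei (143 per library) and each library left out. The nuclei and sheep of a pooled library are not independent replicates, and p-values measure the spread between libraries, 2 of which hold 1 sheep. Some genes that these rules name are not reported here.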

Additional observations from a re-analysis of the deposited data

Results flagged for a closer look

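Of 34 values checked in the 4 control libraries for a library far from the rest, 1 stood out, where chance gives about 1 in 20. The summed astrocyte markers in D1 nuclei of control library 3 were 49.4 CPM, and 12.1, 16.8 and 14.9 CPM in control libraries 1, 2 and 4. That library lay among the OVT73 libraries (37.8 to 51.7 CPM).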

How the results depend on the processing

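The count of genes that passed between OVT73 and control D1 nuclei was 0 under 15 of the 16 alternatives and 4 with DESeq2 (ENSOARG00020014847, MEF2C and the added HTT feature among them). For the interaction with D2 nuclei it was 1 with DESeq2, 10 with no filter on low counts, 4 with classes by TAC1 and EBF1 and by DRD2, PENK and ADORA2A, 0 to 2 with each library left out in turn, and 0 under the other alternatives. EYA4 was among the genes called under the first 3 of these. EYA4 and NELL1 passed in edgeR without OVT73 library 2, CADPS2 and ALK without control library 3 and SLC1A2 without control library 4. The cause was not tested. Fold changes near 0 changed sign for 3 genes that chose the members, whose levels the rule conditions. That of TAC1 was 0.23 without the single-sheep control libraries and -0.526 to 0.0625 with each library left out, positive without control library 1. That of PDE10A was -0.0592 without TMM, -0.0526 without the single-sheep control libraries and -0.0197 to 0.164 with each library left out, negative without control library 1, control library 3 or OVT73 library 2. That of RGS9 was -0.231 to 0.10 with each library left out, positive without control library 4. With each library left out, the D1 share of D1 and D2 nuclei differed by -5.24 to 8.25 percentage points and the patch minus matrix index by -0.0585 to 0.0838. The added HTT feature differed by 1.48 to 3.90 CPM, with OVT73 higher each time, where 0.0667 or 0.1 is the smallest p possible. The D1 share of nuclei and the median UMIs kept direction and side of the threshold under the alternatives run, with differences of 0.567 to 2.39 percentage points and 599 to 6231 UMIs with each library left out. No paired analysis was possible because the labels give no replicate numbers that groups share.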
